A study of Mus musculus with 12 samples.

Results

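Wnt signalling was followed at its first steps: 44 genes for the ligands, the proteins that release them, their receptors and coreceptors, the planar cell polarity proteins and the Dishevelled proteins. The members were set as a list of gene symbols, chosen with earlier results of these data known. Each had at least 1 probe set that carries its symbol and no other. They are 44 of the 18194 genes of the deposited table. By role they divide into 19 Wnt ligands, 2 genes for ligand secretion, 10 frizzled receptors, 2 LRP coreceptors, 3 single-pass tyrosine kinase type receptors, 5 polarity genes and 3 Dishevelled genes. For a gene with several probe sets, the one with the highest mean was used.

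The samples were total RNA of mouse spinal cord on 12 arrays; the titles name the spinal cord, and the source names narrow it to the ventrolateral white matter. They fell in 4 groups of 3 biological replicates, with wild type and Olig2cre/DA-Cat each taken at day 4 and at day 15. In Olig2cre/DA-Cat mice, Cre recombinase is made where the Olig2 gene is used, and DA-Cat stands for dominant-active β-catenin; the controls were wild-type littermates. Olig2 is used by oligodendrocyte lineage cells and, earlier, by the progenitors of motor neurons, so the tissue measured holds cells with and without the active β-catenin. No group carried Cre alone, so effects of Cre and of β-catenin cannot be told apart. The labels tag the days as developmental stages, while their protocol text describes lysolecithin injection into the ventrolateral cord of adults aged 8 to 10 weeks, with tissue taken 14 days later or without a lesion, so what the days count from is not settled here. The labels do not say how many animals went into a sample.

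Wnt proteins are lipid-modified by Porcn and carried to the cell surface by Wls. At the receiving cell they bind a frizzled receptor together with Lrp5 or Lrp6, and Dishevelled passes the signal on, so that β-catenin is no longer degraded and enters the nucleus. A branch without β-catenin uses frizzled, Ror or Ryk receptors with the Vangl and Celsr polarity proteins to orient cells and guide axons. In the oligodendrocyte lineage, β-catenin signalling is known for holding back the maturation of precursors into myelinating cells. A dominant-active β-catenin acts below all 44 members.

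Across all 12 arrays the medians lay between 6.14 and 6.19 and the median of the 27 bacterial controls was 3.08, all values being log2 signals. Known targets of β-catenin marked the genotype: the ligand inhibitor Wif1 was higher in Olig2cre/DA-Cat by 2.83 at day 4 and 2.85 at day 15, Notum by 2.09 and 1.14, and Axin2 by 1.05 and 0.51. Ctnnb1 itself differed by -0.05 and -0.07. Olig2 was lower by 0.90 and 0.44, and the myelin list of 11 genes had 10 lower at day 4 and 9 at day 15. Neuronal genes were high, with list means from 12.22 to 12.49, so the tissue held neuronal RNA in addition to that of white matter. The skeletal muscle list, foreign to the cord, had mean levels between 5.21 and 10.60. In whole tissue, fewer cells of a type and less RNA per cell cannot be told apart.

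Upstream sequences are shown for Fzd1 and Wls, the members whose genotype differences at day 15 passed the test and went opposite ways. Both are the 250 bases before the annotated transcription start in RefSeq, on the strand of the gene, build GRCm38.p6. Fzd1 lies at chr5:4758217-4758466 on the minus strand and Wls at chr3:159839400-159839649 on the plus strand. Capitals mark the core motif of TCF and LEF factors, CTTTGA, searched on both strands.
Fzd1: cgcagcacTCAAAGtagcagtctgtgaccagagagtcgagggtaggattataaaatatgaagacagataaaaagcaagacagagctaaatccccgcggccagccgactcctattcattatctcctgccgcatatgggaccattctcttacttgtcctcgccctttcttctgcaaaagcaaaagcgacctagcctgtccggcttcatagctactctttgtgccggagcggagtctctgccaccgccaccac
Wls: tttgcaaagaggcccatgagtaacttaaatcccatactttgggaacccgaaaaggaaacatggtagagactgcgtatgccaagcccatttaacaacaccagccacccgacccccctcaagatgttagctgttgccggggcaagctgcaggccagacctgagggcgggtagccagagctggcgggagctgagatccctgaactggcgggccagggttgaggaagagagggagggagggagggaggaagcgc
The Fzd1 window held the letters 1 time and the Wls window 0 times. Of the 31 members with a window in the table, 4 held them (Wnt5b, Wnt11, Fzd1 and Ror1), which is 12.9%, where 15.8% of all genes with a window held them; by window it was 13.8% of all 32851. The match is a description of letters and was not tied to binding in these data.

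The first comparison asked which ligand and receptor genes differ when β-catenin is constantly active in Olig2-expressing cells. At day 4 the members past the threshold were 2 frizzled receptors, and 0 of these 2 calls held in every alternative fit. Fzd1 and Fzd2 were higher in Olig2cre/DA-Cat, and 0 members were lower by the limma fit. This is 4.55% of the members higher, where 1.3% of all genes were called higher and 1.81% lower. At an unadjusted p under 0.05 in either direction there were 9 members, or 20.5%, and 20.6% of all genes. The median difference was 0.06 over the members and 0.03 over all genes. None of the 19 ligands passed, nor did either secretion gene, either coreceptor, or any Ror, Ryk, polarity or Dishevelled gene.

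**Figure D1:**
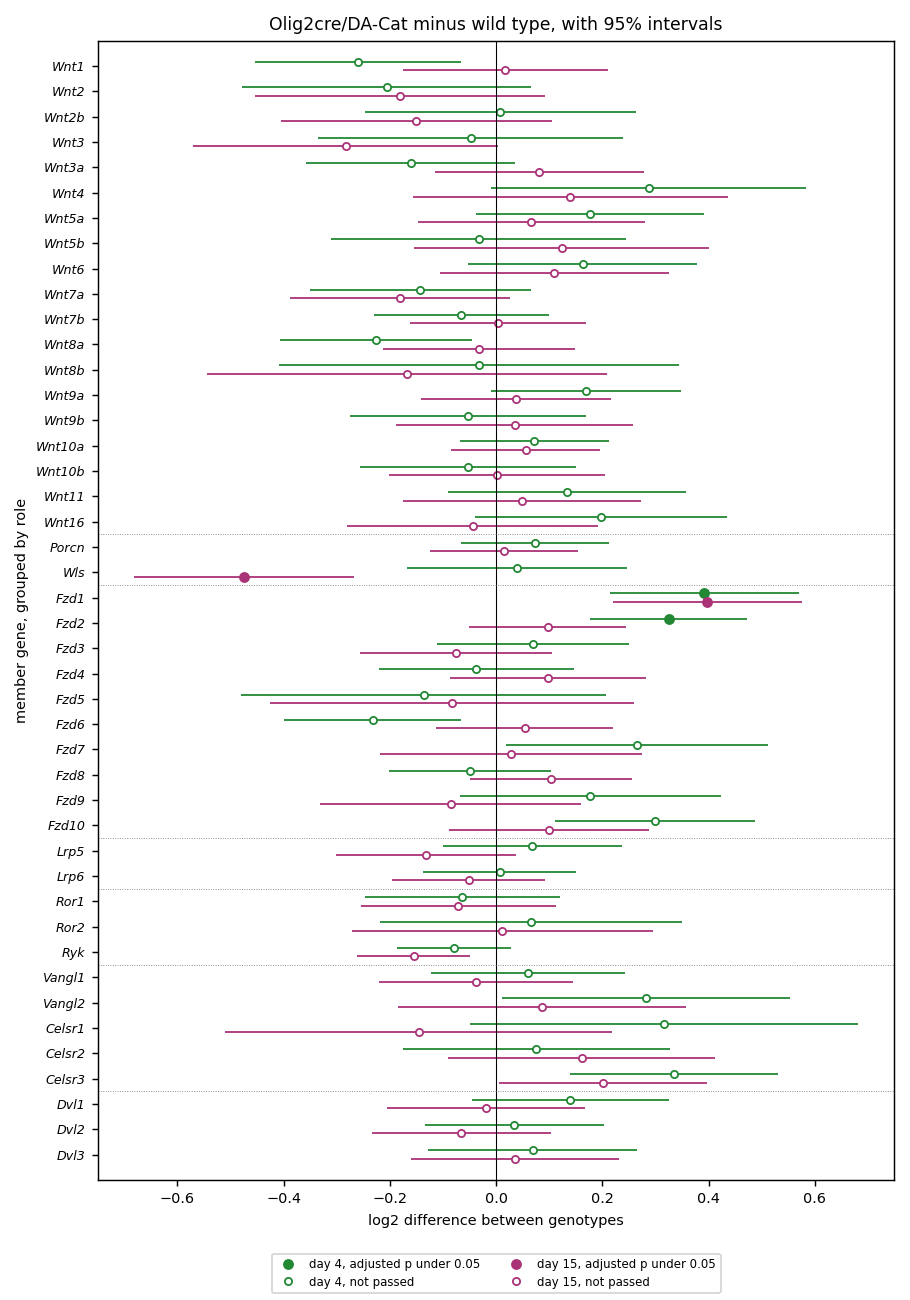
Log2 difference between Olig2cre/DA-Cat and wild type for each of the 44 members (rows, grouped by role), at day 4 in green and at day 15 in purple, with 95% intervals from the limma fit; filled points passed an adjusted p of 0.05. Fzd1 is near 0.4 at both days, Fzd2 is past the threshold at day 4 and Wls lies at -0.47 at day 15.

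Fzd1, a receptor for several Wnt ligands, stood at 8.97, 9.06 and 8.83 in wild type and at 9.26, 9.37 and 9.41 in Olig2cre/DA-Cat at day 4. The groups did not overlap. The log2 difference was 0.39 ± 0.08 (SE, adjusted p = 0.0242), which is 1.31-fold. Its call was lost without wild type replicate 1 (adjusted p = 0.0800), without wild type replicate 3 (0.0583), without Olig2cre/DA-Cat replicate 2 (0.0945) or replicate 3 (0.114), and with quantile normalization (0.0542), with differences from 0.33 to 0.40 in these fits.

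Fzd2, a receptor used in both branches of the pathway, stood at 7.64, 7.69 and 7.69 in wild type and at 7.94, 7.98 and 8.08 in Olig2cre/DA-Cat at day 4. All 3 Olig2cre/DA-Cat arrays were above all 3 of wild type, by 0.32 ± 0.07 (SE, adjusted p = 0.0244). The other 2 probe sets of Fzd2 differed by 0.30 and 0.39. The call was lost without wild type replicate 1 (adjusted p = 0.0998) or 2 (0.0735), without Olig2cre/DA-Cat replicate 2 (0.0758) or 3 (0.119), and with the mean of the probe sets (0.141) or the one of highest variance (0.194). At day 15 Fzd2 differed by 0.10 (adjusted p = 0.51), with overlapping groups.

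The members nearest to the threshold at day 4 were Celsr3, Fzd10, Fzd6 and Wnt1. Celsr3, a large cadherin of axon guidance and planar polarity, was at 8.36, 8.37 and 8.49 in wild type and at 8.71, 8.73 and 8.79 in Olig2cre/DA-Cat (difference 0.34, adjusted p = 0.0653). Fzd10 was at 6.89, 6.57 and 6.55 against 7.02, 6.98 and 6.90 (difference 0.30, adjusted p = 0.0812). Fzd6, a receptor known from hair and skin polarity, went the other way, from 8.07, 8.32 and 8.22 to 8.00, 7.95 and 7.96 (difference -0.23, adjusted p = 0.119). In these 3 genes the arrays of the genotypes did not overlap, yet none passed. Wnt1, the founding ligand of the family, differed by -0.26 (adjusted p = 0.128) at levels between 3.32 and 3.81, close to the bacterial controls.

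Separation by array was then counted for all members at day 4. In 8 members all Olig2cre/DA-Cat arrays were above all wild-type arrays: Wnt4, Wnt5a, Fzd1, Fzd2, Fzd7, Fzd10, Vangl2 and Celsr3. That is 18.2% of the members, and 18.8% of all genes were separated in this way. Wnt8a, Fzd6 and Ryk were below on all arrays, which is 6.82% of the members, against 10.3% of all genes.

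At day 15 the same comparison gave 1 member higher and 1 lower in Olig2cre/DA-Cat. Fzd1 was higher again, and Wls, the carrier that takes Wnt proteins to the cell surface, was lower. Each is 2.27% of the members; over all genes 0.616% were called higher and 2.31% lower. The median difference of the members was 0.01, and that of all genes 0.02. Fzd1 was above wild type on all arrays, 2.27% of the members, and Wls, Lrp5 and Ryk were below on all, 6.82%; over all genes 10.6% were separated upward and 9.69% downward.

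Wls stood at 9.08, 8.85 and 9.12 in wild type and at 8.47, 8.66 and 8.49 in Olig2cre/DA-Cat at day 15. The difference was -0.47 ± 0.09 (SE, adjusted p = 0.018), a level 0.72 times that of wild type. At day 4 the gene was at 8.12, 8.28 and 8.39 against 8.23, 8.24 and 8.43, with overlapping groups and a difference of 0.04 (adjusted p = 0.85). The change of the genotype effect between the days was -0.51 ± 0.13 (SE) and did not pass over all genes (adjusted p = 0.191).

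The probe sets of Wls did not give 1 answer. A second bright probe set, with a mean level of 8.36, differed by -0.32 at day 15, and another, at 7.88, by -0.13 with overlapping groups. The dimmest was at 3.30, near the bacterial controls. With the probe set of highest variance the difference was -0.13 (adjusted p = 0.631), and with the mean of the probe sets -0.24 (adjusted p = 0.108). The call was also lost without wild type replicate 1 (adjusted p = 0.0798) or 3 (0.0651), without Olig2cre/DA-Cat replicate 1 (0.0688) or 3 (0.0801), with the muscle level as a covariate (0.0614) and from the arrays of the 2 groups only (0.0830). The myelin list was lower along with Wls at day 15 only. Its mean level then was between 12.63 and 12.71 in wild type and between 11.86 and 12.21 in Olig2cre/DA-Cat. At day 4 it was between 10.63 and 10.83 in wild type and between 8.46 and 8.63 in Olig2cre/DA-Cat, while Wls differed by 0.04. The part of this list in the result was not tested.

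Fzd1 stood at 8.74, 8.80 and 8.77 in wild type and at 9.23, 9.00 and 9.28 in Olig2cre/DA-Cat at day 15. The groups did not overlap, with a difference of 0.40 ± 0.08 (SE, adjusted p = 0.0209). The difference of the effect between the days was 0.01, with a 95% interval from -0.25 to 0.26. The skeletal muscle list was at 6.37, 5.21 and 7.22 on the same wild-type arrays and at 10.60, 5.37 and 8.47 on those of Olig2cre/DA-Cat. The array with the lowest muscle level had the lowest Fzd1 value in Olig2cre/DA-Cat and the highest in wild type. With the muscle level as a covariate the Fzd1 difference was 0.32 (adjusted p = 0.0709) and with the meninges level 0.41 (adjusted p = 0.0744). The 2 calls of day 4 were kept with either covariate. The call was lost without wild type replicate 1 (adjusted p = 0.0828), 2 (0.0568) or 3 (0.0551), from the arrays of the 2 groups only (0.103), with the mean of the probe sets (difference 0.21, adjusted p = 0.0815) and without Olig2cre/DA-Cat replicate 1 (0.0753) or 3 (0.0956). The only other Fzd1 probe set had a mean level of 4.73 and differed by 0.12 at day 4 and 0.02 at day 15.

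Nearest to the threshold at day 15 were Ryk, Celsr3, Wnt3 and Wnt7a. Ryk, an atypical receptor of Wnt5a in axon guidance, was at 8.84, 8.75 and 8.78 in wild type and at 8.63, 8.64 and 8.63 in Olig2cre/DA-Cat (difference -0.16, adjusted p = 0.127). Its arrays did not overlap, though the difference was small. Celsr3 differed by 0.20 (adjusted p = 0.279), Wnt3 by -0.28 (adjusted p = 0.302) and Wnt7a by -0.18 (adjusted p = 0.371), all with overlapping groups. Wnt3 stood between 3.36 and 3.99 on these arrays, near the bacterial controls.

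**Figure D2:**
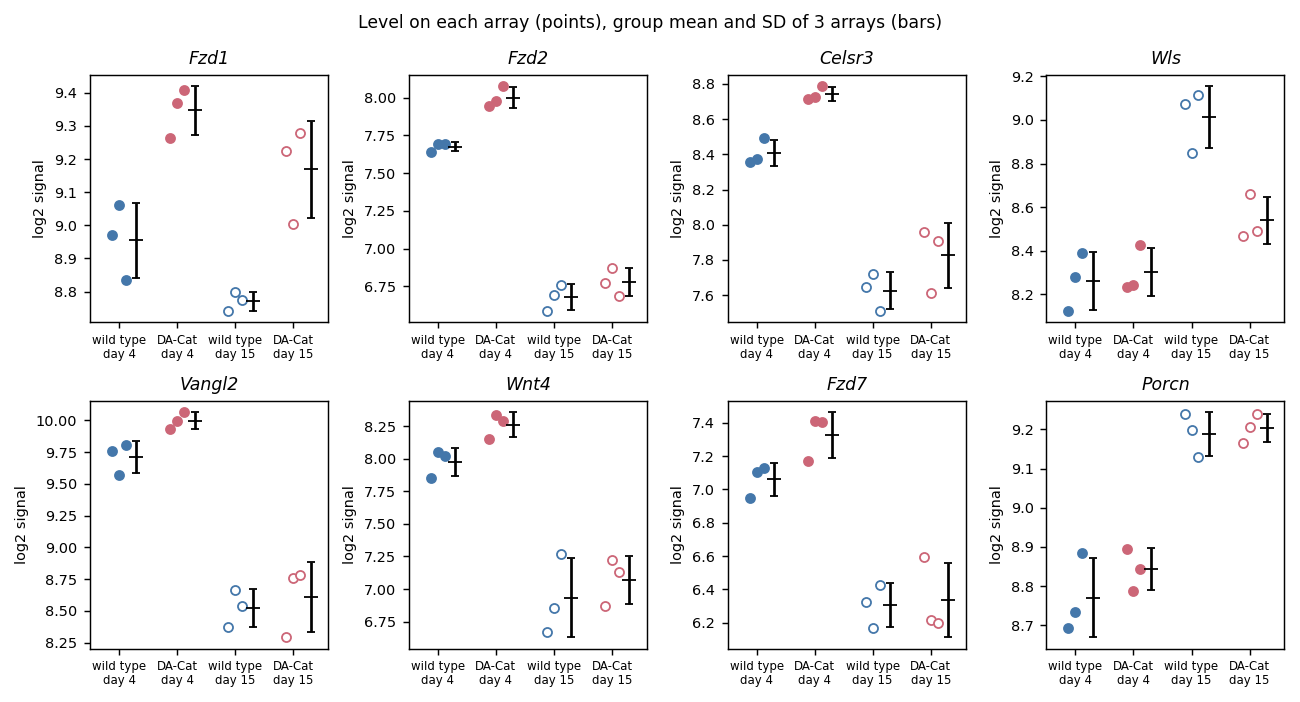
Log2 signal of 8 members on each of the 12 arrays (points; filled at day 4, open at day 15; blue wild type, red Olig2cre/DA-Cat), with the mean and SD of 3 arrays beside each group; each panel has its own axis, which does not start at 0. Fzd1 separates the genotypes at both days, Wls at day 15, and Vangl2, Wnt4, Fzd2 and Fzd7 are lower at day 15 than at day 4 in both genotypes.

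Averaged over both days, 3 members were higher in Olig2cre/DA-Cat and 0 lower. They were Fzd1 (0.39 ± 0.06, SE, adjusted p = 0.00132), Celsr3 (0.27 ± 0.06, SE, adjusted p = 0.0237) and Fzd2 (0.21 ± 0.05, SE, adjusted p = 0.0198). This is 6.82% of the members, and over all genes 4.19% were higher and 4.12% lower. With quantile normalization or median centring the split was 3 higher and 2 lower. Fzd1 passed in all 23 alternatives run for the average, with differences from 0.23 to 0.44. Celsr3 lost its call with the muscle level as a covariate (adjusted p = 0.0914) and in 5 of the fits that left out an array, and Fzd2 in 7 alternatives.

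For the difference of the genotype effects between the days, 0 of the 44 members passed in the limma fit, where 0.192% of all genes had a positive and 0.159% a negative difference past the threshold. At an unadjusted p under 0.05 there were 4 members, or 9.09%, and 10.1% of all genes. They were Wls at -0.51, Fzd6 at 0.29, Fzd2 at -0.23 and Wnt1 at 0.28. None of the alternatives run gave a member past the threshold. The 95% intervals of these differences were widest for Wnt8b, from -0.67 to 0.40, and Celsr1, from -0.98 to 0.05.

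The days differed far more than the genotypes, and the common direction was down. In wild type 24 members passed between day 4 and day 15, 19 lower and 5 higher at day 15. The lower members make up 43.2% of the 44, where 23.6% of all genes were lower, and the higher ones 11.4%, where 21.3% of all genes were higher. In Olig2cre/DA-Cat 25 members passed, 19 lower and 6 higher, or 43.2% and 13.6%, where 26.3% and 21.8% of all genes were called. The median difference of the members was -0.16 for wild type and -0.21 for Olig2cre/DA-Cat, against -0.02 and 0.00 for all genes. These 2 comparisons share no array, though they share the estimate of spread: 22 members passed in both, which is 91.7% of the wild-type calls and 88.0% of the Olig2cre/DA-Cat calls, 18 lower in both, 4 higher in both and 0 in opposite directions. Over all genes 6940 passed in both, which is 85.0% of the wild-type calls and 79.4% of the Olig2cre/DA-Cat calls, with 17 in opposite directions.

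**Figure D3:**
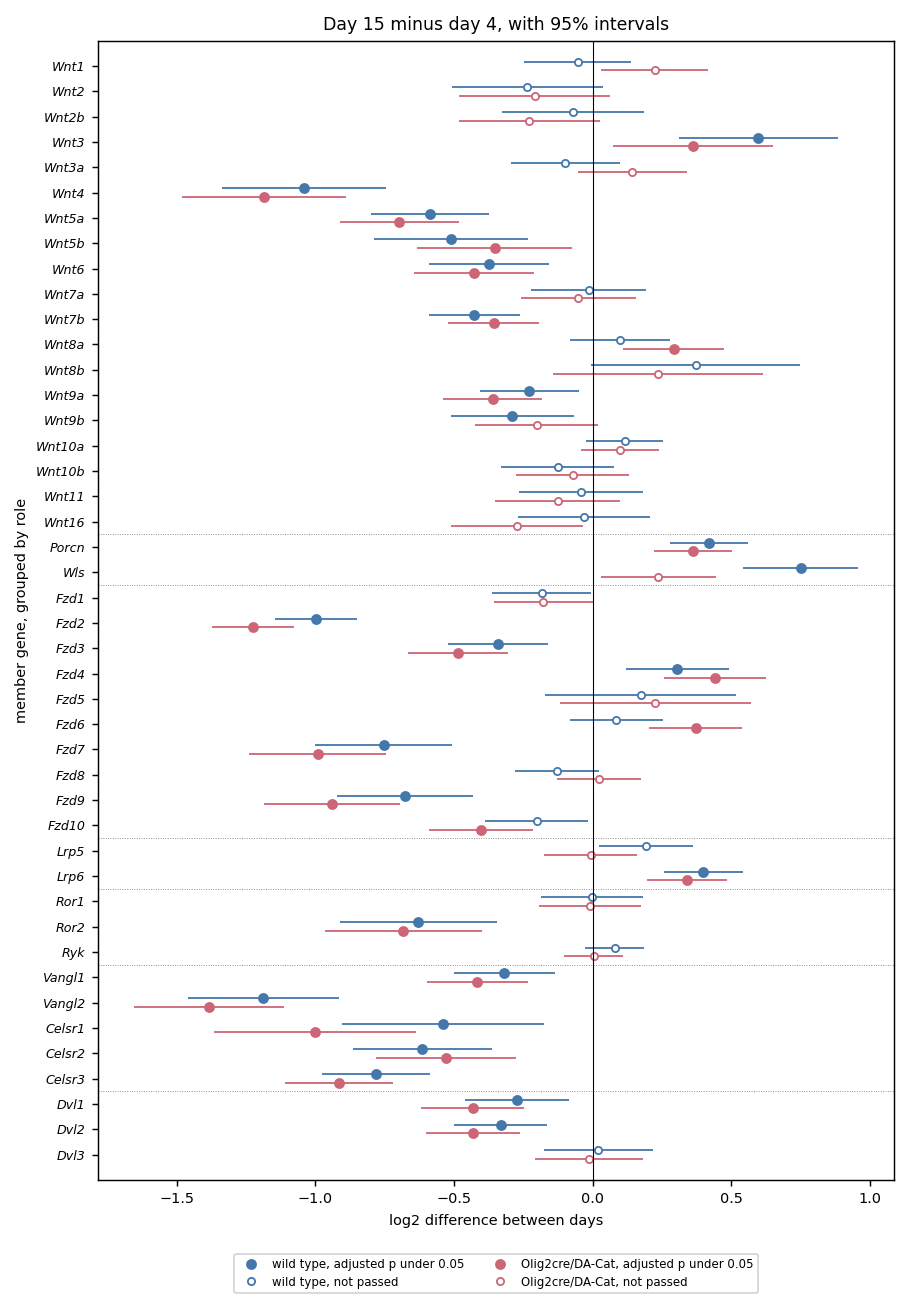
Log2 difference between day 15 and day 4 for each of the 44 members (rows, grouped by role), with blue for wild type and red for Olig2cre/DA-Cat, with 95% intervals from the limma fit; filled points passed an adjusted p of 0.05. All 5 polarity genes lie to the left of 0 in both genotypes, and Porcn, Fzd4, Lrp6 and Wnt3 to the right.

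Among the ligands, 7 were lower (36.8%) and 1 higher (5.26%) at day 15 in wild type, where 23.6% and 21.3% of all genes were. In Olig2cre/DA-Cat 6 were lower (31.6%) and 2 higher (10.5%), where 26.3% and 21.8% of all genes were. Wnt4, a ligand known for guiding commissural axons along the cord, was at 7.85, 8.05 and 8.02 in wild type at day 4 and at 6.67, 6.86 and 7.27 at day 15. In Olig2cre/DA-Cat it was at 8.15, 8.34 and 8.29 at day 4 and at 6.87, 7.22 and 7.13 at day 15. The days did not overlap in either genotype, with differences of -1.04 ± 0.14 and -1.19 ± 0.14 (SE, adjusted p = 4.79e-05 and 1.37e-05). The second Wnt4 probe set differed by -0.75 in both.

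Wnt5a, the main ligand of the branch without β-catenin, was at 7.07, 7.16 and 7.14 in wild type at day 4 and at 6.44, 6.53 and 6.65 at day 15. In Olig2cre/DA-Cat it went from 7.29, 7.29 and 7.32 to 6.34, 6.75 and 6.73. It was lower on every array of day 15, by 0.59 (adjusted p = 0.000343) in wild type and 0.70 (adjusted p = 7.68e-05) in Olig2cre/DA-Cat. Its 3 dimmer probe sets differed by -0.05 to -0.37 in wild type and by -0.14 to -0.32 in Olig2cre/DA-Cat.

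Wnt7a and Wnt7b are the ligands that neural progenitors and precursors send to the growing vessels of the cord. Wnt7b fell by 0.43 (adjusted p = 0.000535) in wild type and by 0.36 (adjusted p = 0.00172) in Olig2cre/DA-Cat. Wnt7a depended on the probe set. The one used, at a mean level of 8.09, differed by -0.01 and -0.05 between the days, while another, at 7.46, differed by -0.80 and -0.74. Neither direction can be given for Wnt7a from these arrays.

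Of the further ligands, Wnt5b, Wnt6 and Wnt9a were lower in both genotypes, by 0.51 and 0.35, by 0.37 and 0.43, and by 0.23 and 0.36 in wild type and Olig2cre/DA-Cat, and Wnt9b passed in wild type, lower by 0.29, and not in Olig2cre/DA-Cat. Some of these calls depended on single arrays or on the scaling: Wnt9a in wild type was lost without any 1 of 5 arrays (day 4 replicates 2 and 3, day 15 replicates 1, 2 and 3; adjusted p = 0.0610 to 0.152), with quantile normalization (0.0748), median centring (0.118), a trend with robust variances (0.0639) and the muscle level (0.0506), and Wnt9b without any 1 of 4 (day 4 replicates 1 and 2, day 15 replicates 2 and 3; 0.0603 to 0.150), with quantile normalization (0.0624) and with median centring (0.109). Wnt6 in wild type was lost with the probe set of highest variance (adjusted p = 0.129). Wnt5b in Olig2cre/DA-Cat was lost without day 4 replicate 2 or 3 or day 15 replicate 2 or 3 (0.0548 to 0.145), and with median centring (0.0568). Wnt3 was higher in both, by 0.60 and 0.36, but from a group mean of 3.26 or 3.21, near background; in Olig2cre/DA-Cat its call was lost without day 4 replicate 1 or 3, day 15 replicate 1 or 2, or wild type day 4 replicate 2 (adjusted p = 0.0505 to 0.169), with array weights (0.0928) and from the arrays of the 2 groups only (0.0903). Wnt8a, likewise near background, was higher in Olig2cre/DA-Cat by 0.29, and not past the threshold without day 4 replicate 1 (adjusted p = 0.0530). Taking a group mean under 5 as near background, a level chosen with the values known, 5 ligands (Wnt1, Wnt3, Wnt8a, Wnt8b and Wnt16) and Lrp5 were below it in all 4 groups. Wnt2, Wnt2b, Wnt10b and Celsr1 were below it in some. Differences of these genes are limited by background. Wnt3a, Wnt10a and Wnt11 had group means between 5.07 and 5.80 and passed in no comparison.

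Both genes of ligand secretion were higher at day 15 in wild type, and Porcn also in Olig2cre/DA-Cat. Porcn, the acyltransferase that attaches the lipid to Wnt proteins, was at 8.69, 8.73 and 8.88 in wild type at day 4 and at 9.24, 9.20 and 9.13 at day 15. In Olig2cre/DA-Cat it went from 8.90, 8.79 and 8.84 to 9.17, 9.21 and 9.24. The days were apart on all arrays, by 0.42 ± 0.06 and 0.36 ± 0.06 (SE, adjusted p = 0.000171 and 0.000469). Wls rose in wild type by 0.75 ± 0.09 (SE, adjusted p = 3.67e-05) and differed by 0.24 in Olig2cre/DA-Cat (adjusted p = 0.0571). Its probe set at 8.36 differed by 0.64 and 0.17, the one at 7.88 by 0.84 and 0.72, and the dimmest by 0.15 and 0.23. The smaller value in Olig2cre/DA-Cat was thus shared by the probe set at 8.36 and not by the one at 7.88.

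The frizzled receptors parted into falling and rising genes between the days. Fzd2, Fzd3, Fzd7 and Fzd9 were lower and Fzd4 higher in both genotypes, and in Olig2cre/DA-Cat also Fzd10 was lower and Fzd6 higher. The fall of Fzd10 rests on 1 of 2 probe sets: the other, at a mean level of 3.79, differed by 0.26, and with the mean of the probe sets the call was lost (-0.07, adjusted p = 0.504). For Fzd6 the mean of the probe sets gave 0.20 in place of 0.37, still past the threshold. Fzd2 went from 7.64, 7.69 and 7.69 to 6.59, 6.69 and 6.76 in wild type, and from 7.94, 7.98 and 8.08 to 6.77, 6.87 and 6.69 in Olig2cre/DA-Cat. It fell by 1.00 ± 0.07 and by 1.22 ± 0.07 (SE, adjusted p = 2.39e-07 and 3.62e-08), with no overlap, and its other probe sets fell too, by 0.89 to 1.36.

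Fzd7, a receptor of progenitor and stem cells, went from 6.95, 7.11 and 7.13 to 6.32, 6.17 and 6.43 in wild type, and from 7.17, 7.41 and 7.40 to 6.59, 6.22 and 6.20 in Olig2cre/DA-Cat. The log2 differences were -0.75 (adjusted p = 0.000149) and -0.99 (adjusted p = 1.34e-05), with no overlap of days. Its second probe set, at a mean level of 6.35, differed by -0.01 and 0.04, so the fall of Fzd7 rests on 1 of 2 probe sets.

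Fzd9 was at 7.75, 7.84 and 7.96 in wild type at day 4 and at 7.24, 7.05 and 7.23 at day 15. In Olig2cre/DA-Cat it went from 7.95, 8.15 and 7.98 to 7.17, 6.81 and 7.28. It has 1 probe set, and it fell by 0.68 (adjusted p = 0.000323) and by 0.94 (adjusted p = 1.98e-05). Fzd3, a polarity receptor needed for axon tracts, fell by 0.34 and 0.49 on its brightest probe set, at a mean of 10.3; the other 5 differed by -0.26 to 0.15, and with the mean of the probe sets both Fzd3 calls were lost (-0.07 and -0.13, adjusted p = 0.437 and 0.158).

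Fzd4, the receptor of Norrin on endothelial cells, rose. It was at 6.96, 6.94 and 6.89 in wild type at day 4 and at 7.34, 7.22 and 7.16 at day 15, and went from 6.90, 6.84 and 6.95 to 7.52, 7.16 and 7.33 in Olig2cre/DA-Cat. The differences were 0.31 (adjusted p = 0.0103) and 0.44 (adjusted p = 0.000846). Its dimmer probe sets, at means of 5.20 and 3.06, differed by -0.06 and 0.02 in wild type and by 0.24 and 0.12 in Olig2cre/DA-Cat, and with the mean of the probe sets the wild-type call was lost (0.09, adjusted p = 0.403). The endothelial list had 3 of 8 genes higher and 3 lower in wild type (37.5% each, where 21.3% and 23.6% of all genes were). In Olig2cre/DA-Cat 3 were higher and 2 lower (37.5% and 25%, where 21.8% and 26.3% of all genes were). Its mean levels on the 12 arrays lay between 7.64 and 7.92. Fzd1, Fzd5 and Fzd8 did not pass between the days in either genotype.

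Of the coreceptors, Lrp6 was at 8.40, 8.28 and 8.45 in wild type at day 4 and at 8.78, 8.77 and 8.78 at day 15, and went from 8.36, 8.35 and 8.44 to 8.80, 8.76 and 8.62 in Olig2cre/DA-Cat. It rose by 0.40 (adjusted p = 0.000307) and by 0.34 (adjusted p = 0.000895), and its second probe set differed by 0.32 and 0.43. Lrp5 did not pass, with group means of 4.00 to 4.19. Ror2, a receptor of Wnt5a, fell by 0.63 (adjusted p = 0.00163) and by 0.68 (adjusted p = 0.000816), on the brighter of 2 probe sets; the other, at a mean of 4.92, differed by -0.19 and -0.20. Its relative Ror1 differed by 0.00 and -0.01, and Ryk by 0.08 and 0.00, and neither passed.

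All 5 polarity genes were lower at day 15 in both genotypes. Vangl2, a membrane protein at the core of planar polarity, was at 9.76, 9.57 and 9.81 in wild type at day 4 and at 8.37, 8.67 and 8.54 at day 15. In Olig2cre/DA-Cat it went from 9.93, 9.99 and 10.06 to 8.29, 8.76 and 8.78. It fell by 1.19 ± 0.12 and by 1.38 ± 0.12 (SE, adjusted p = 7.54e-06 and 1.69e-06), to 0.439 and 0.383 times its day 4 level. All 3 of its probe sets were lower, by 0.55 to 1.38.

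Celsr3 went from 8.36, 8.37 and 8.49 to 7.65, 7.72 and 7.51 in wild type, and from 8.71, 8.73 and 8.79 to 7.96, 7.61 and 7.91 in Olig2cre/DA-Cat. It fell by 0.78 (adjusted p = 1.63e-05) and by 0.92 (adjusted p = 3.54e-06), with the days apart on all arrays. Celsr2, which with Celsr3 shapes neurites, fell by 0.61 and 0.53, and Vangl1 by 0.32 and 0.42. The Vangl1 call in wild type was lost with the probe set of highest variance, whose difference was -0.20 (adjusted p = 0.162). Celsr1 fell by 0.54 in wild type, where the days overlapped, from a mean of 4.91 to 4.37, and by 1.00 in Olig2cre/DA-Cat, from 5.23 to 4.23. Its wild-type call was lost without wild type day 4 replicate 3 (adjusted p = 0.0868) or without wild type day 15 replicate 1 (0.0817) or 2 (0.0595).

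The Dishevelled proteins connect frizzled receptors to both branches. Dvl1 fell by 0.27 and 0.43 and Dvl2 by 0.33 and 0.43 between the days, in wild type and Olig2cre/DA-Cat. Dvl3 differed by 0.02 and -0.01 and passed in neither. The Dvl1 call in wild type was lost without wild type day 4 replicate 2 (adjusted p = 0.0923) or wild type day 15 replicate 3 (0.0607), and with the arrays centred on their median (0.0671) or the mean of the probe sets (0.0753). The Dvl2 call in wild type was lost with the mean of the probe sets (-0.18, adjusted p = 0.108); the second Dvl2 probe set, at a mean level of 3.57, differed by -0.02 there.

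Lists of other cell types moved with the days. Their counts are to be read beside the 23.6% lower and 21.3% higher of all genes in wild type. In Olig2cre/DA-Cat these shares were 26.3% and 21.8%. The meninges and fibroblast list had 8 of 13 genes lower and 0 higher at day 15 in wild type, with mean levels of 9.09 to 9.67 at day 4 and 8.00 to 9.10 at day 15; in Olig2cre/DA-Cat 5 were lower and 1 higher, with 9.46 to 9.70 and 8.57 to 9.20. With the meninges level as a covariate, 16 of the 24 wild-type calls and 23 of the 25 Olig2cre/DA-Cat calls were kept. Those lost in wild type were Wnt5b, Wnt6, Wnt9a, Wnt9b, Fzd3, Fzd4, Celsr1 and Dvl1. The myelin list rose in all 11 genes in both genotypes, the microglia list in 9 of 9 in wild type and 7 of 9 in Olig2cre/DA-Cat, and the astrocyte list in 5 and 6 of 9, with 2 lower in each. The neuron list had 5 higher and 6 lower of 12 in wild type, and 6 higher and 3 lower in Olig2cre/DA-Cat, at nearly level means of 12.22 to 12.49. The part of these cell types in the members' changes was not tested.

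**Figure D4:**
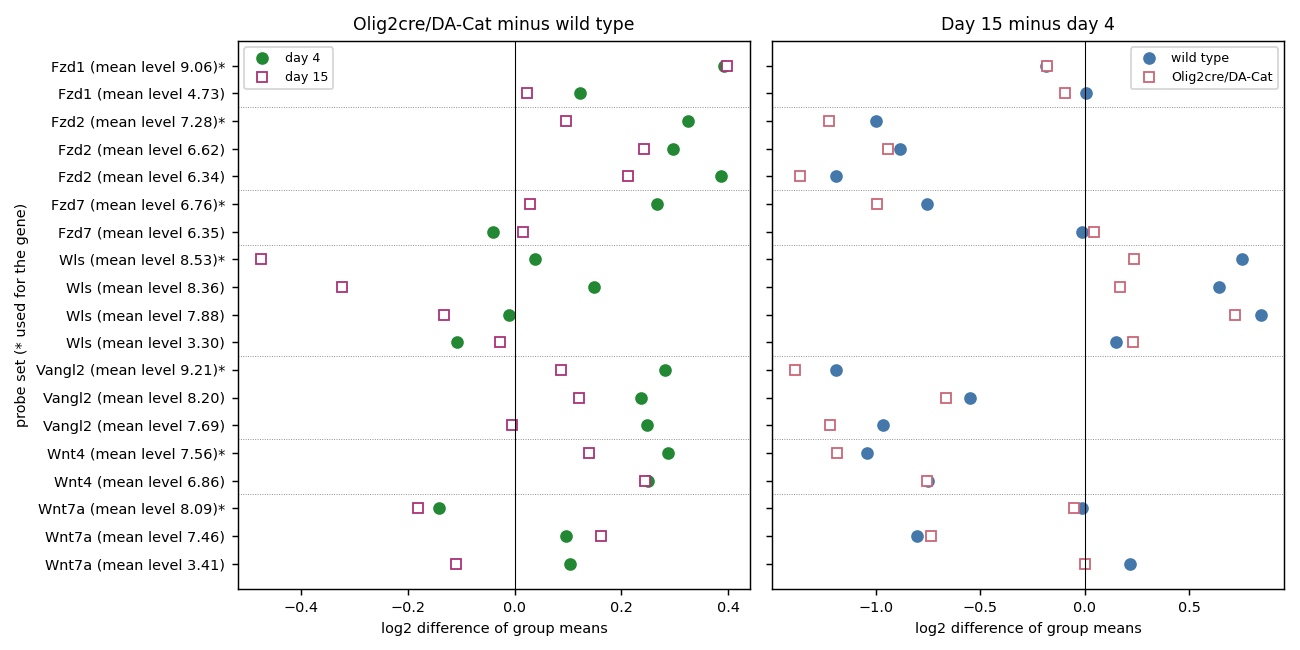
Log2 difference of group means for every probe set of 7 members (rows, with the mean level over 12 arrays; an asterisk marks the probe set used), between genotypes on the left (green day 4, purple day 15) and between days on the right (blue wild type, red Olig2cre/DA-Cat). The probe sets of Fzd2, Vangl2 and Wnt4 lie on one side of 0 between the days, while those of Fzd7 and Wnt7a are split, and Wls shows -0.47, -0.32, -0.13 and -0.03 between the genotypes at day 15.

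Genotype calls were also counted in lists of the other genes of the pathway, to be read beside the 1.3% higher and 1.81% lower of all genes at day 4 and the 0.616% and 2.31% at day 15. In a list of 18 feedback and target genes 9 were higher and 2 lower at day 4, and 5 higher and 0 lower at day 15; Nkd1, which acts on Dishevelled, rose by 2.15 at day 4. Of 20 secreted antagonists and modulators 3 were higher at day 4 (Wif1, Notum and Apcdd1) and 2 at day 15 (Wif1 and Notum), and 0 were lower. Of 9 genes for R-spondins, their receptors and their ligases 3 were higher at day 4 (Rnf43, Lgr6 and Rspo3) and 3 at day 15 (Lgr5, Rspo3 and Lgr6). Of 25 genes of the destruction complex and the nuclear transducers, Axin2 and Lef1 were higher and Tcf7l2 lower at day 4, and Axin2 higher at day 15. Several genes stand in more than 1 of these lists, and the lists were chosen with earlier results of these data known.

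Of 23 polarity and related genes outside the members, 2 were higher at day 4 (8.70%, where 1.3% of all genes were) and 2 lower at day 15 (8.70%, where 2.31% of all genes were). Fat4, a giant cadherin, rose by 0.43 (adjusted p = 0.0027) and Dact1, which binds Dishevelled, by 0.57 (adjusted p = 0.0320) at day 4. At day 15 Prickle1, a partner of Vangl2, differed by -0.50 (adjusted p = 0.00237) and Scrib by -0.32 (adjusted p = 0.0440), both lower. Between the days 11 of the 23 were lower (47.8%) and 3 higher (13.0%) in wild type, where 23.6% and 21.3% of all genes were. In Olig2cre/DA-Cat 14 were lower (60.9%) and 2 higher (8.70%), where 26.3% and 21.8% of all genes were. Fat4 fell by 1.73 and 2.00, whereas Daam2, a formin that acts with Dishevelled, rose by 1.29 and 1.26. Of the 4 measured genes that act with Norrin, Wnt7a or Wnt7b at the vessel, Reck alone passed between the genotypes, higher by 0.36 (adjusted p = 0.0417) at day 15.

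Between the days the antagonist list had 11 lower (55%) and 2 higher (10%) of 20 in wild type, where 23.6% and 21.3% of all genes were. In Olig2cre/DA-Cat 10 were lower (50%) and 2 higher (10%), where 26.3% and 21.8% of all genes were. The antagonists Frzb, Sfrp2 and Sostdc1 fell, with differences of -1.02, -1.43 and -1.76 in wild type and -1.11, -1.38 and -1.45 in Olig2cre/DA-Cat. The destruction complex and transducer list is to be read beside the same shares of all genes. It had 17 of 25 lower (68%) in wild type, 20 of 25 lower (80%) with active β-catenin, and 0 higher in either. Apc, the scaffold of the destruction complex, fell by 0.67 in both.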

How the data were processed

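Total RNA of 12 mouse spinal cord samples was measured on Affymetrix 3' expression arrays, 1 array per sample, per the labels' protocols. The deposited values are log2 signals of 45101 probe sets; the authors' background correction, summarization and normalization are not given in the sources used here, and the log2 scale was read from their range. Precision is limited by having 3 arrays in a group. Of the probe sets 34958 have 1 gene symbol in the platform annotation, 932 several and 9211 none listed. Symbols were checked by Entrez identifier against RefSeq (GRCm38.p6; 34754 matched, 0 changed). The probe set with the highest mean was kept per gene, giving 18194 genes, none filtered.

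A linear model with the 4 group means was fitted to all arrays with limma 3.58.1 (R 4.3.3; functions lmFit, contrasts.fit and eBayes; 8 residual and 3.96 prior degrees of freedom). P-values are two-sided and Benjamini-Hochberg adjusted over all genes, with a threshold of 0.05; "rose", "fell", "higher" and "lower" of single genes refer to it where an adjusted p or count is given. P-values set each difference against the spread between these samples, and how many animals that spread covers is not known. The fit was tested on simulated arrays. Members and gene lists were chosen with earlier results of these data known. All members could be named; values on every array were given for members past the threshold between genotypes, for the 4 nearest to it at each day, and for those that changed most between days. Alternatives were other normalization, centring, filters on dim genes, variance settings, array weights, probe set choices, a replicate block, muscle or meninges level as a covariate, the arrays of the 2 groups only, and leaving out each array. Some list genes without a named probe set were not analysed here.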

Additional observations from a re-analysis of the deposited data

How the results depend on the processing

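No called member changed sign in any alternative. Between genotypes at day 4 the 2 calls became 1 with quantile normalization, 1 with the mean of probe sets, 1 with the probe set of highest variance and 6 (4 higher, 2 lower) with array weights; leaving out 1 array gave 0 to 3. At day 15 the 2 calls became 0 with the mean of probe sets, 1 with the probe set of highest variance, 0 with the muscle level as a covariate, 1 with the meninges level and 0 from the arrays of the 2 groups only; leaving out 1 array gave 0 to 3. For the average the 3 calls became 5 with quantile normalization, 5 with median centring, 6 without the dimmest 30% of genes, 5 with array weights and 1 with the muscle level; leaving out 1 array gave 1 to 5. For the difference between the days of the genotype effect all alternatives gave 0. Between the days, without the dimmest 50% of genes 16 members were left and 13 passed in each genotype; leaving out 1 array gave 21 to 26 in wild type and 24 to 26 in Olig2cre/DA-Cat. Of the 24 wild-type calls 14 held in every alternative that kept the gene, and of the 25 Olig2cre/DA-Cat calls 20. Causes were not tested beyond the smaller number of genes under the filters. The share of all genes called in each fit is not given here or for the replicate block below. A change in these counts is therefore not read as particular to the members. Median centring moved the median of all genes by at most 0.07 in any comparison.

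With the replicate number as a block, 2, 2, 0, 24, 28 and 3 members passed at day 4, at day 15, for the difference between days, between days in wild type, between days in Olig2cre/DA-Cat and for the average. Same-numbered samples of the 2 genotypes correlated in their deviations from the group means at 0.03 to 0.30 at day 4 and 0.02 to 0.18 at day 15. Of the 6 samples of a day, 5 correlated best with their own number at day 4 and 4 at day 15. Whether the numbers mark pairs is not settled, and the main fit did not use them.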
